A study of Mus musculus with 12 samples.

Results

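Male germ cells use their own versions of several enzymes of sugar breakdown, and 9 genes of such isozyme pairs were examined in testis RNA of Wobbler mice with a modifier, Wobbler mice and wildtype mice. The genes were chosen by name, with results of these data known. The germ cell forms were Pgk2, Ldhc, Gapdhs and Pdha2, and the general forms were Pgk1, Ldha, Gapdh, Pdha1 and Hk1. Of these 9, 7 had a probe by the platform's gene symbols, 4 germ cell forms and 3 general forms, with 10 probes of 20355 on the array. Pgk1 and Ldha had no probe under their symbols, so Pgk2 and Ldhc are described without their general partners.

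Each of 12 two-colour arrays compared a pair of RNA pools. A pool held RNA of 3 males on a Castaneus background, and was Wobbler modifier, Wobbler or wildtype; age is not given in the labels. Wobbler mice are homozygous for a point mutation in Vps54, whose protein belongs to the complex that tethers vesicles returning to the Golgi, and Wobbler males are infertile with misshapen sperm heads. What the modifier is, and its genotype, is not given in the sources used here; by their names, both the Wobbler modifier and the Wobbler mice carry the Wobbler mutation. The comparisons were Wobbler modifier over wildtype, Wobbler modifier over Wobbler, and Wobbler over wildtype, on 4 arrays each, with the dyes exchanged on replicates 3 and 4. The labels do not tell if separate pools were used for the arrays of a comparison, so the p-values measure array spread that may be technical.

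Glycolysis splits glucose to pyruvate, and pyruvate is either reduced to lactate or passed to the mitochondria through the pyruvate dehydrogenase complex. Pgk1 and Pdha1 lie on the X chromosome, which is silenced during male meiosis. Their autosomal copies Pgk2 and Pdha2, which arose by retrotransposition and have no introns, are active in meiotic and later germ cells. Ldhc arose by duplication of a lactate dehydrogenase gene, and Gapdhs encodes a GAPDH anchored to the fibrous sheath of the sperm tail; mice lacking Pgk2, Ldhc or Gapdhs have males of low or no fertility with impaired sperm motility. Hk1 is counted here with the general forms, but mouse germ cells also make Hk1 transcripts with their own first exons.

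The start regions of Pgk2, Ldhc and Gapdhs are shown because these 3 germ cell genes had a ratio below 0 on all 4 arrays of Wobbler modifier over wildtype. The sequences are those of RefSeq on GRCm38.p6, 250 bases before and 50 after the first start listed for each gene, 5′ to 3′ on the gene's strand. Capitals mark TGACG, a half-site for cAMP response factors such as CREM, GGGCGG, a core of Sp1 sites, and CCAAT, the core of CCAAT boxes, each searched on both strands.
Pgk2, chr17:40208560-40208859, minus strand: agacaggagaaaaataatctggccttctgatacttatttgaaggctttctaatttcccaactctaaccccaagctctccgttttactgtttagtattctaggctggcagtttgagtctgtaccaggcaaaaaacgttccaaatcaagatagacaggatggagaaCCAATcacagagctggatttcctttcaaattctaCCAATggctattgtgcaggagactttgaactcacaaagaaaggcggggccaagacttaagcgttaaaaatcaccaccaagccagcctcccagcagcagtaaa
Ldhc, chr7:46861013-46861312, plus strand: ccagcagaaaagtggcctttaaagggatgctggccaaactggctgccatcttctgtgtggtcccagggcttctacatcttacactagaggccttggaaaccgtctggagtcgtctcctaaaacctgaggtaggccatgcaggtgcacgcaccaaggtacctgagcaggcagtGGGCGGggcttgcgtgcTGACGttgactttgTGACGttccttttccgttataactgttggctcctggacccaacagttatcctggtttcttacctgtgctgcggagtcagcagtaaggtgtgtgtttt
Gapdhs, chr7:30743632-30743931, minus strand: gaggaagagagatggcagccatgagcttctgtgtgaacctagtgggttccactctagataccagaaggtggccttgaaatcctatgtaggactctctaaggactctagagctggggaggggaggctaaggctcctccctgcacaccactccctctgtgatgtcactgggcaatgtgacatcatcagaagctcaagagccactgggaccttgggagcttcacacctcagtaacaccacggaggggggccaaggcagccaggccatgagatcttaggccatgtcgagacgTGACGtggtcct
The Pgk2 window held 2 CCAAT cores, with first bases at -86 and -52 from the start. The Ldhc window held GGGCGG at -78 and TGACG at -61 and at -47. The Gapdhs window held TGACG once, at 39 bases after the start. The 3 windows shared none of the searched motifs between all of them. Among 32851 start regions of the same length, 20.8% held TGACG, 35.7% held GGGCGG and 37.4% held CCAAT, so each is a frequent match, and a match is not a bound site.

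The deposited values are log2 ratios of the channels, with no level of either channel, so a labelled tissue could not be checked against marker levels and no gene's level could be compared with another's. Values of the dye-exchanged arrays were multiplied by -1, and in every ratio the genotype named first is the numerator. The direction rests on array titles and the usual dye order and is only likely. The arrays gave 18325 to 19584 usable spots each. Replicate arrays agreed weakly over all features, with correlations across features of 0.115 to 0.245 in Wobbler modifier over wildtype, 0.0174 to 0.14 in Wobbler modifier over Wobbler and -0.0125 to 0.138 in Wobbler over wildtype. In Wobbler over wildtype, replicate 2 had an SD of 1.61 over spots, against 0.617 to 0.995 on the other arrays.

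The first question was how germ cell isozyme transcripts stood in testis with the modifier relative to wildtype. Pgk2, the phosphoglycerate kinase of meiotic and later germ cells, was lower with the modifier by 2.02-fold, and it was 1 of 7 measured isozyme genes to pass; 0 were higher. Of all features 0.733% passed, 0.699% as lower and 0.0339% as higher. Ldhc, Gapdhs and Hk1 had ratios of -0.52 to -0.70 with every array below 0 and did not pass. Pdha1, the X-linked pyruvate dehydrogenase subunit, stayed near 0.

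The deposited Pgk2 values, before any array was turned, were -0.943 and -0.879 on replicates 1 and 2 and 1.273 and 0.967 on the dye-exchanged replicates 3 and 4. The sign thus turned with the dyes on all 4 arrays. As Wobbler modifier over wildtype the values were -0.943, -0.879, -1.273 and -0.967, all below 0, the lowest on replicate 3. The fitted log2 ratio was -1.02 ± 0.13 (SE, n = 4 arrays), with a 95% interval of -1.29 to -0.74 and an adjusted p of 0.00633 in limma. By p-value Pgk2 ranked 23 of 14729 features, and 0.835% of features had a lower ratio. Without replicate 1, 2 or 3 of this comparison its adjusted p was 0.0752, 0.07 or 0.0677, so each of these arrays decides the call, and with the 4 arrays fitted alone it was 0.0929. Its ratio stayed between -0.98 and -1.09 whichever of the 4 was left out.

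Ldhc, the lactate dehydrogenase of spermatocytes, spermatids and sperm, had values of -0.361, -0.422, -0.729 and -0.567. All 4 were below 0, and all lay above the highest Pgk2 value of these arrays. Its fitted log2 ratio was -0.52 ± 0.11 (SE, n = 4), with a 95% interval of -0.78 to -0.26 and a limma adjusted p of 0.0955.

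Gapdhs, the GAPDH of the sperm tail, had a gene mean of -1.066, -0.624, -0.432 and -0.670 over its 2 probes, and the probes differed. Probe 8003 gave -0.727, -0.726, -1.186 and -0.760. Probe 9503 gave -1.404, -0.522, 0.321 and -0.580, with replicate 3 on the other side of 0. The gene's fitted log2 ratio was -0.70 ± 0.16 (SE, n = 4), with a limma adjusted p of 0.1. Fitted by probe, 8003 was at -0.85 with an adjusted p of 0.0142 and passed, while 9503 was at -0.55 with an adjusted p of 0.622. On whether Gapdhs passed, the answer therefore depends on how its probes are combined.

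Pdha2, the germ cell copy of the pyruvate dehydrogenase E1 alpha subunit, did not share this uniform sign. Its values were 0.115, -0.082, -0.862 and -0.262, with 1 array above 0. The fitted log2 ratio was -0.27 ± 0.19 (SE, n = 4), with a limma adjusted p of 1.

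Of the general forms, Hk1, a hexokinase that phosphorylates glucose, had values of -0.564, -0.485, -0.769 and -0.692. These 4 arrays were close together, with an SD of 0.127, the smallest among the 7 genes in this comparison. The fitted log2 ratio was -0.63 ± 0.20 (SE, n = 4), with a 95% interval of -1.07 to -0.19 and a limma adjusted p of 0.313. The SE comes from all 12 arrays, and Hk1 had an SD of 0.89 in Wobbler over wildtype, which enters it. Without replicate 2 of Wobbler over wildtype the same ratio of Hk1 had an adjusted p of 0.0266. The single Hk1 probe does not tell germ cell transcripts from the others.

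Gapdh, the GAPDH of most cells, was measured by 3 probes. Probe 16944 gave -0.532, -0.286, -0.446 and -0.371, and probe 19122 gave -0.434, -0.323, -0.368 and -0.483. Probe 20266 gave 0.135, 0.792, -2.694 and -0.370, so it departed from the other probes on both sides of 0. Averaged over the 3 probes Gapdh was at -0.45 ± 0.23 (SE, n = 4), with a limma adjusted p of 0.798. Without probe 20266, left out after its values were seen, it was at -0.41. The 2 concordant probes correlated at 0.857 over the 12 arrays. Gapdh has many processed pseudogenes in the mouse, and cross-hybridisation between Gapdh, its copies and Gapdhs was not tested.

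Pdha1 had values of 0.266, 0.470, -0.060 and -0.459, on both sides of 0. Its fitted log2 ratio was 0.05 ± 0.21 (SE, n = 4), with a limma adjusted p of 1.

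**Figure D1:**
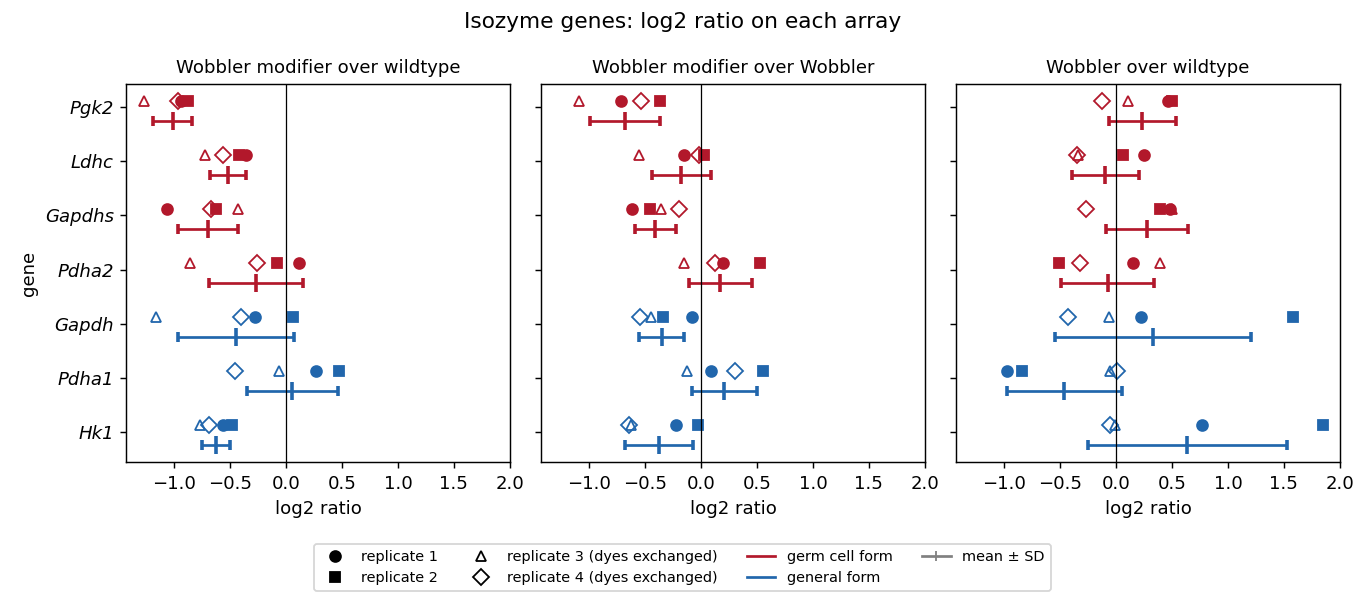
Log2 ratio of each measured isozyme gene on each of the 4 arrays of a comparison (points, open where the dyes were exchanged, turned to the same direction) with mean and SD beneath. Pgk2, Ldhc, Gapdhs and Hk1 lie below 0 on all 4 arrays of Wobbler modifier over wildtype, and no gene lies on 1 side of 0 on all 4 arrays of Wobbler over wildtype.

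The 4 germ cell forms had a median log2 ratio of -0.61 in Wobbler modifier over wildtype, with 15 of 16 array values below 0, and the 3 general forms had a median of -0.45, with 9 of 12 below 0. The median of all features was 0.01. In this comparison 4 of 7 isozyme genes had every array below 0, against 10.4% of all features. These counts take Gapdh by its mean over 3 probes, which was 0.061 on replicate 2, where probe 20266 gave 0.792. Its concordant probes 16944 and 19122 were below 0 on all 4 arrays. The genes were chosen with results of these data known, and the counts describe these genes alone.

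The next question was whether the same genes differed between Wobbler testis with and without the modifier. Again the lowest ratio was that of Pgk2, but 0 of 7 isozyme genes passed in either direction in limma, where 0.414% of all features passed. At an unadjusted p under 0.05 there were 2 of 7, against 11.5% of all features. Pgk2 and Gapdhs among the germ cell forms, and Gapdh and Hk1 among the general forms, had all 4 arrays below 0, against 6.8% of all features. For Gapdh the sign on replicate 2 rested on probe 20266. Pdha2 and Pdha1 had 1 of 4 arrays below 0 each.

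Pgk2 had values of -0.718, -0.364, -1.094 and -0.538 in Wobbler modifier over Wobbler. The groups of values in this comparison and in Wobbler modifier over wildtype overlap for Pgk2, and both comparisons have the modifier genotype as numerator. The fitted log2 ratio was -0.68 ± 0.13 (SE, n = 4), or 1.6-fold, with a 95% interval of -0.96 to -0.40 and a limma adjusted p of 0.0559. It passed with arrays centred on their medians, with array weights, with the loop model, when a value on all 4 arrays was required, and without replicate 2 of Wobbler over wildtype, with adjusted p of 0.0338, 0.0496, 0.00779, 0.0421 and 0.0432. Fitted by probe it also passed, with an adjusted p of 0.0482. Over all alternatives run in the turned direction its adjusted p lay between 0.00779 and 0.696.

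Gapdhs had gene values of -0.620, -0.462, -0.358 and -0.194, a fitted log2 ratio of -0.41 ± 0.16 (SE, n = 4) and a limma adjusted p of 0.361. Here the means of its probes were closer, at -0.42 for 8003 and -0.40 for 9503, but their arrays differed. Probe 8003 gave -0.341, -0.339, -0.664 and -0.332, and probe 9503 gave -0.899, -0.584, -0.053 and -0.055. Ldhc had values of -0.156, 0.023, -0.555 and -0.018, on both sides of 0, with a fitted log2 ratio of -0.18 ± 0.11 (SE, n = 4).

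Hk1 had values of -0.223, -0.024, -0.624 and -0.645, and its dye-exchanged arrays were the lower pair. Its fitted log2 ratio was -0.38 ± 0.20 (SE, n = 4). Gapdh was at -0.35 ± 0.23 (SE, n = 4), with probe 20266 missing on replicates 1 and 3. On replicate 2 its value of -0.343 rested on -1.143 at probe 20266, where probes 16944 and 19122 gave -0.009 and 0.123. Fitted by probe, 16944 and 19122 were at -0.18 and -0.31. The pyruvate dehydrogenase genes were on the other side of 0, Pdha2 at 0.17 ± 0.19 (SE, n = 4) and Pdha1 at 0.21 ± 0.21 (SE, n = 4), where the median of all features was 0.08.

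The remaining comparison asked what Wobbler testis without the modifier showed against wildtype. No isozyme gene had all 4 arrays on 1 side of 0, against 11.0% of all features with every array below and 6.58% with every array above. In limma 0 of 7 passed, where 0.306% of all features passed. At an unadjusted p under 0.05 there was 1 of 7, Hk1, against 15.7% of all features.

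Pgk2 had values of 0.464, 0.502, 0.105 and -0.130, with a fitted log2 ratio of 0.24 ± 0.13 (SE, n = 4) and a 95% interval of -0.04 to 0.51. Ldhc had values of 0.247, 0.059, -0.338 and -0.349, and a fitted log2 ratio of -0.10 ± 0.11 (SE, n = 4). For both genes the dye-exchanged arrays were the lower pair, by 0.50 in the mean for each.

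By gene means, Hk1, Gapdh and Pdha1 had the widest gaps between dye orientations among the 7 genes in this comparison. These were 1.34, 1.15 and -0.89 (first minus exchanged pair of arrays). The Gapdh gap rested on probe 20266, at 4.597 on replicate 2, where probes 16944 and 19122 gave 0.082 and 0.075. Hk1 had values of 0.767 and 1.847 on replicates 1 and 2, and -0.010 and -0.052 on the dye-exchanged replicates 3 and 4. Its fitted log2 ratio of 0.64 ± 0.20 (SE, n = 4) was the mean of these unlike pairs, and its limma adjusted p was 0.197. Pdha1 had values of -0.974 and -0.842 on replicates 1 and 2, and -0.052 and 0.012 on replicates 3 and 4. Its fitted log2 ratio was -0.46 ± 0.21 (SE, n = 4), with a limma adjusted p of 0.327. For Hk1 and Pdha1 the exchanged arrays thus lay near 0.

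Gapdhs had gene values of 0.478, 0.390, 0.498 and -0.273, and a fitted log2 ratio of 0.27 ± 0.16 (SE, n = 4). Its replicate 3 was at -0.152 by probe 8003 and at 1.147 by probe 9503. Gapdh was at 0.33 ± 0.23 (SE, n = 4), a mean that rested on 4.597 at probe 20266 of replicate 2. The concordant probes 16944 and 19122 were at 0.08 and -0.02. Pdha2 had values of 0.148, -0.510, 0.391 and -0.327, with 2 arrays on each side of 0, and a fitted log2 ratio of -0.07 ± 0.19 (SE, n = 4).

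**Figure D2:**
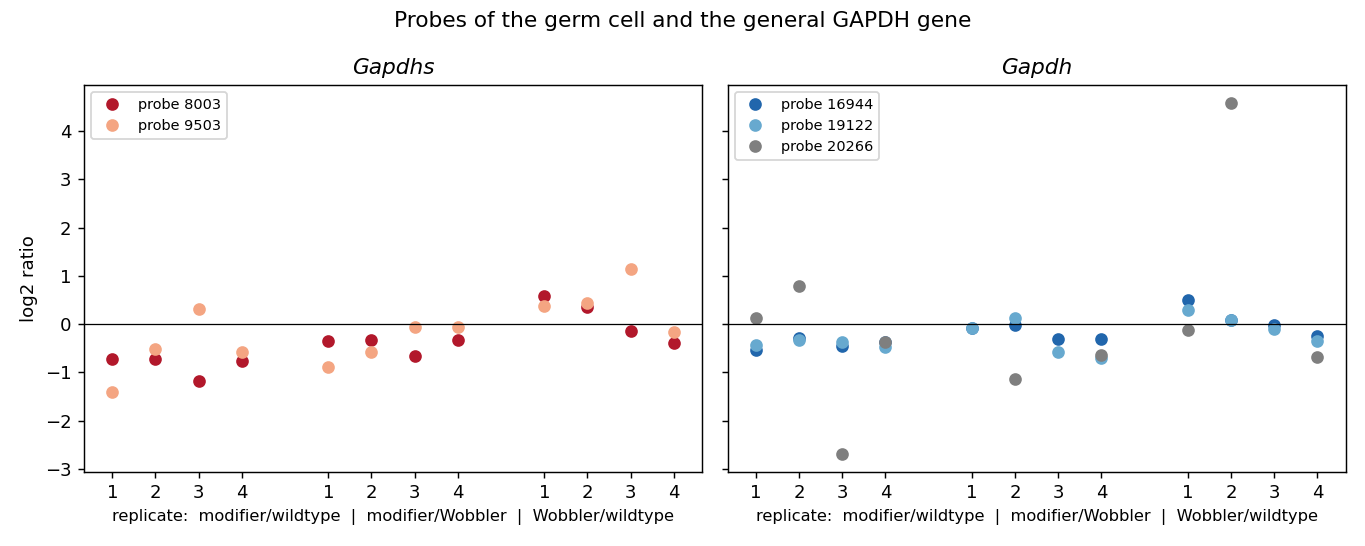
Log2 ratio of each probe of Gapdhs (left) and Gapdh (right) on the 12 arrays, grouped by comparison. Gapdh probes 16944 and 19122 lie close together throughout, while probe 20266 reaches -2.694 and 4.597 and has no value on 3 arrays.

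Each pair with probes for both forms was also compared within the array, which removes any shift common to that array. Over 4 arrays the smallest p that the exact two-sided sign-flip test allows is 0.125, so none of these differences could pass. Gapdhs minus Gapdh was -0.788, -0.685, 0.737 and -0.262 in Wobbler modifier over wildtype, with a mean of -0.25 ± 0.70 (SD, n = 4; exact permutation p = 0.5). The arrays lay on both sides of 0, and replicate 3, where probes 9503 and 20266 departed from the others, was the one far above.

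With probe 8003 of Gapdhs set against the mean of Gapdh probes 16944 and 19122, chosen after the values were seen, the difference was -0.244, -0.422, -0.779 and -0.333. That is a mean of -0.44 ± 0.23 (SD, n = 4; exact permutation p = 0.125), with the germ cell form lower on 4 of 4 arrays. By the same probes it was -0.18 ± 0.24 (SD, n = 4) in Wobbler modifier over Wobbler, lower on 3 of 4 arrays. Over wildtype, Wobbler alone gave 0.07 ± 0.18 (SD, n = 4), lower on 2 of 4.

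Pdha2 minus Pdha1 was -0.33 ± 0.44 (SD, n = 4; exact permutation p = 0.375) in Wobbler modifier over wildtype. It was -0.03 ± 0.12 (SD, n = 4; exact permutation p = 0.625) in Wobbler modifier over Wobbler and 0.39 ± 0.60 (SD, n = 4; exact permutation p = 0.375) in Wobbler over wildtype. Adjusted over the 6 tests of gene means, the p-values were 0.9 to 1.

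Whether the modifier and the Wobbler ratios over wildtype differ was tested in the same fit. For Pgk2 the modifier ratio minus the Wobbler ratio was -1.25 ± 0.18 (SE), with a 95% interval of -1.65 to -0.86 and a limma adjusted p of 0.0183, and 0.577% of all features passed this test. Both ratios have wildtype as their denominator, and whether from the same pools is not given. The call was lost without a dye term (adjusted p = 0.0667), and without replicate 1 or 3 of Wobbler over wildtype (0.0686 and 0.0578). It was also lost without replicate 1, 2, 3 or 4 of Wobbler modifier over wildtype (0.105, 0.104, 0.0888 and 0.0534). The difference itself stayed between -1.21 and -1.33 in these fits that left out an array.

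The other 6 genes did not pass. Hk1 was at -1.27 ± 0.28 (SE, limma adjusted p 0.0955), of which -0.63 came from the modifier ratio and the rest from the Wobbler ratio with its unlike dye orientations, and Gapdhs at -0.97 ± 0.22 (SE, limma adjusted p 0.104). Without replicate 4 of Wobbler over wildtype the Gapdhs difference was -1.19, with an adjusted p of 0.0439. Pdha1 was at 0.52 ± 0.30 (SE), the only gene of the 7 above 0.

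This difference is also an indirect ratio of Wobbler modifier over Wobbler, and it can be set beside the direct one. For 6 of the 7 genes the direct ratio was the higher, and for Pdha1 the lower. The direct minus the indirect ratio was 0.57 ± 0.22 (SE) for Pgk2, 0.56 ± 0.27 (SE) for Gapdhs and 0.89 ± 0.34 (SE) for Hk1. It was 0.25 ± 0.20 (SE) for Ldhc. None of the 7 passed in limma, with 0.0272% of all features passing and adjusted p of 0.667 to 0.817 over the 7, and Pgk2 and Hk1 had an unadjusted p under 0.05, as did 6.95% of all features.

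**Figure D3:**
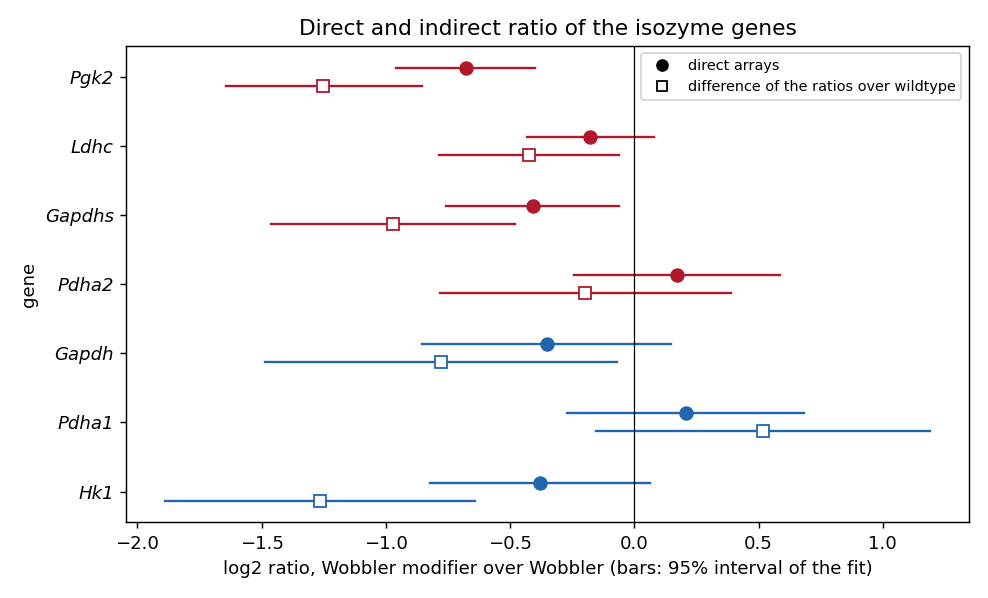
Log2 ratio of Wobbler modifier over Wobbler for each isozyme gene, measured directly (filled circles) and as the difference of the ratios over wildtype (open squares), with 95% intervals of the fit. Pgk2 lies at -0.68 directly and at -1.25 indirectly, and Pdha1 is above 0 by both routes.

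Other genes of the pathway were taken from lists of transporters, enzymes and regulators around glycolysis and pyruvate. Of 63 listed genes 38 were tested, and 0 passed in limma in any of the 3 comparisons when probes of a gene were averaged. Fitted by probe, 1 of their 55 probes passed in Wobbler modifier over wildtype, 0 in Wobbler modifier over Wobbler and 2 in Wobbler over wildtype. These were a probe of Gpd2, the mitochondrial glycerol-3-phosphate dehydrogenase, at -1.12 (limma adjusted p 0.0182), and in the last comparison probes of Pfkl at -0.74 (0.0342) and of Aldoa at 0.93 (0.0498). The other probes of these 3 genes did not pass there: they gave 0.03 and 0.32 for Gpd2, -0.47 for Pfkl, and 0.16 and -0.05 for Aldoa. At an unadjusted p under 0.05, 6 were lower and 1 higher in Wobbler modifier over wildtype, 1 lower and 5 higher in Wobbler modifier over Wobbler, and 4 lower and 5 higher in Wobbler over wildtype. Of all features 7.33%, 11.5% and 15.7% had such a p in these comparisons. Their medians were -0.07, 0.00 and -0.04 (log2), where all features had 0.01, 0.08 and -0.01.

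The smallest p-values in Wobbler modifier over wildtype belonged to Aldoa, Ldhb, Slc2a3 and Pgam1. Aldoa, the aldolase that splits the 6-carbon sugar bisphosphate, had values of -0.486, -0.361, -0.680 and -0.533. All 4 arrays were below 0, and the fitted log2 ratio was -0.52 ± 0.12 (SE, n = 4, limma adjusted p 0.118). Its 3 probes gave -0.49, -0.46 and -0.59. Pgam1, the general phosphoglycerate mutase, was at -0.58 ± 0.20 (SE, n = 4), and Ldhb, the lactate dehydrogenase subunit favoured in heart, at -0.30 ± 0.10 (SE, n = 4). Slc2a3, the glucose transporter GLUT3, was on the other side of 0 at 0.38 ± 0.13 (SE, n = 4), with 4 of 4 arrays above 0.

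The smallest p-values in Wobbler modifier over Wobbler were those of Eno2 (0.97 ± 0.36, SE), Ldhb (-0.25 ± 0.10, SE), Slc2a3 (0.32 ± 0.13, SE) and Slc2a5 (0.30 ± 0.13, SE), each over 4 arrays. Eno2 is an enolase typical of neurons and Slc2a5 a fructose transporter. Their limma adjusted p lay between 0.336 and 0.401.

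For Wobbler over wildtype they were those of Pfkl (-0.60 ± 0.13, SE), Bpgm (0.41 ± 0.10, SE), Slc2a8 (-0.68 ± 0.17, SE) and Slc2a3 (0.48 ± 0.13, SE), each over 4 arrays. Pfkl is the liver type of phosphofructokinase, Bpgm makes 2,3-bisphosphoglycerate, and Slc2a8 is a hexose transporter of testis and other tissues. Their limma adjusted p lay between 0.107 and 0.152. The fitted ratio of Slc2a3 was thus above 0 in all 3 comparisons. In Wobbler modifier over Wobbler it rested on replicates 1 and 2, at 0.852 and 0.450, with the dye-exchanged arrays at -0.036 and 0.013.

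Late spermatids are among the cells that use the germ cell isozymes. Of 10 late spermatid markers 7 were lower in Wobbler modifier over wildtype, with a median log2 ratio of -1.06 and a range of -1.60 to -0.32. Over Wobbler, the modifier had 5 lower, with a median of -0.81. In Wobbler over wildtype 0 of 10 passed in limma, with a median of -0.20. There 2 had an unadjusted p under 0.05, 1 lower and 1 higher. By unadjusted p 9 of 10 were lower in each modifier comparison. Of all features 0.699% passed as lower in Wobbler modifier over wildtype. In either direction 0.414% passed in Wobbler modifier over Wobbler and 0.306% in Wobbler over wildtype. An unadjusted p under 0.05 was found for 7.33%, 11.5% and 15.7% of all features in these 3 comparisons. Syce2, of the synaptonemal complex and the one spermatocyte marker of 8 with a value, was at -0.94 in Wobbler modifier over wildtype, where it passed, and at -0.65 in Wobbler modifier over Wobbler.

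The Pgk2 ratio of -1.02 lay within the range of the spermatid markers in Wobbler modifier over wildtype. That of Ldhc, -0.52, lay between their highest value and their median. So did those of Gapdhs (-0.70) and of the general forms Hk1 (-0.63) and Gapdh (-0.45). Pdha2 (-0.27) and Pdha1 (0.05) lay above the range. Of 5 Leydig cell markers 1, Cyp17a1, was lower in each modifier comparison, and the rest did not pass, having ratios of -1.05 to -0.20 in Wobbler modifier over wildtype. By unadjusted p under 0.05, 3 of the 5 were lower in each modifier comparison. Of 3 measured spermatogonia markers and 6 Sertoli markers 0 passed in any comparison in limma. At an unadjusted p under 0.05 there were 2 lower and 1 higher Sertoli markers in Wobbler modifier over wildtype, 2 higher Sertoli markers in Wobbler modifier over Wobbler, and 1 higher spermatogonia marker in Wobbler over wildtype. Of 3 macrophage markers 1, Tyrobp, was lower in Wobbler modifier over wildtype, at -0.68. Tyrobp was at -0.39 in Wobbler modifier over Wobbler and did not pass, with an unadjusted limma p of 0.00336. Of the peritubular and blood markers, 0 of 3 and 0 of 2 passed in limma or had an unadjusted p under 0.05. In whole testis, fewer cells of a type and less RNA per cell cannot be told apart, and the part of the cell types in the isozyme ratios was not tested.

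**Figure D4:**
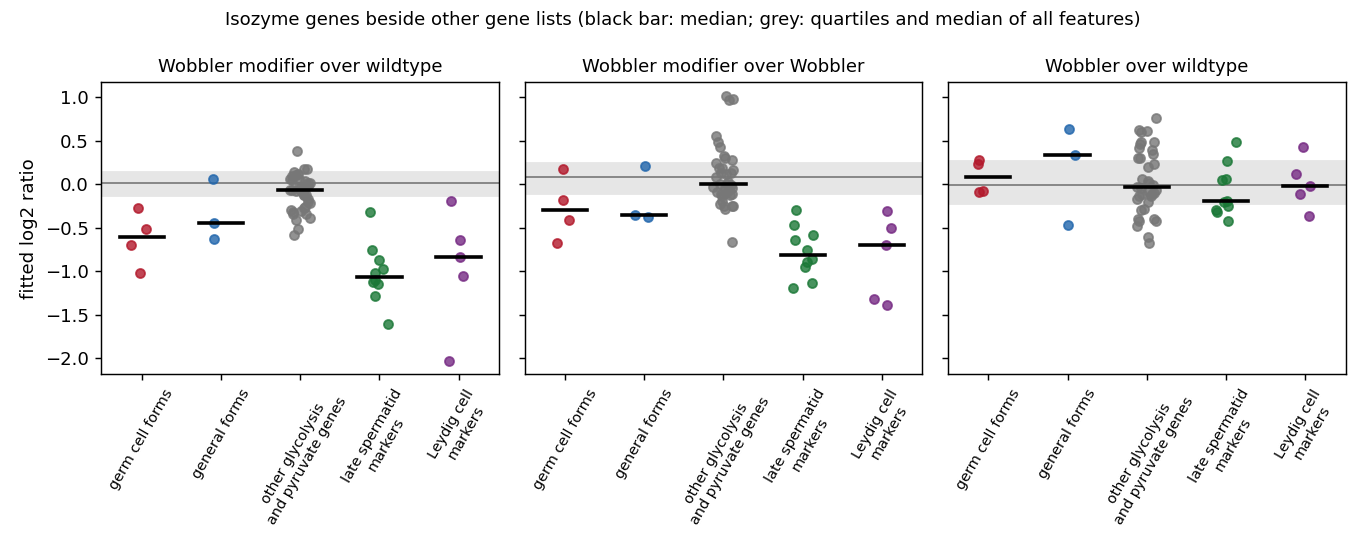
Fitted log2 ratios of the germ cell forms, the general forms, the other glycolysis and pyruvate genes and the late spermatid and Leydig cell markers (points) with their medians (black bars), over the quartiles and median of all features (grey), in each comparison. The germ cell forms in Wobbler modifier over wildtype have a median of -0.61, the general forms -0.45, the other pathway genes -0.07 and the late spermatid markers -1.06.

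Among 8045 named genes with a value on every array, the patterns most like that of Pgk2 over the 12 arrays were those of Cyp17a1, Gstm2 and Oaz3, with Pearson correlations of 0.981, 0.976 and 0.972. These have log2 ratios of -2.03, -0.99 and -1.28 in Wobbler modifier over wildtype. For Ldhc they were Fkbp1a, Ldhal6b and Ppp4r2, with correlations of 0.967, 0.964 and 0.96. Fkbp1a and Ppp4r2 had ratios of 0.02 and -0.06 in that comparison, against -0.52 for Ldhc, as a correlation does not depend on the level of the ratios. Like Ldhc, both had their lowest ratio of the 3 comparisons there. What the likeness rests on was not tested. Ldhal6b is a lactate dehydrogenase A-like gene known for expression in testis, and was at -0.32.

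For Gapdhs the nearest were Rad17, Ranbp10 and Tfdp1, at 0.876, 0.866 and 0.864, and for Pdha2 Clec2m, Enc1 and Cndp2, at 0.899, 0.875 and 0.858. Between the isozymes, Pgk2 correlated with Hk1 at 0.871, with Gapdhs at 0.834, with Ldhc at 0.776 and with Pdha2 at 0.246 over the same 12 arrays. The arrays of a comparison share their pair of genotypes, and each genotype enters 8 arrays, so these values describe the arrays and carry no p.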

How the data were processed

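Testis RNA was compared on 12 two-colour arrays, 4 per comparison. The authors deposited 1 log2 ratio per spot; the scanner, background correction, normalization, ratio direction and intensities were not given in the sources used here, so dim spots could not be filtered by signal. The label protocol mentions a common reference pool, which the channel labels do not, and the channel labels were followed. Base 2 follows from the values. With a constant taken off each array, from 1.05% up to 7.73% of spots were within 0.001 of log2 ratios of whole numbers up to 5. At positions offset from these ratios the share was 0.58% to 0.99%. On the Wobbler over wildtype arrays the match was weakest, at 1.05% to 1.79%. A repeated value, on 22 to 165 spots per array, lay at log2(100000) above that constant and was treated as missing.

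Whether to turn replicates 3 and 4 was checked along the loop, which cannot tell which genotype is the numerator: over 14729 features the direct and indirect Wobbler modifier over Wobbler ratios correlated at 0.126 with dye-exchanged arrays turned, and at 0.00619 with none turned. Of 20355 probes 14030 had 1 symbol, 5 several and 6320 none; probes of a symbol were averaged per array. Features needed 3 or more values in each comparison. A single limma model (version 3.58.1, lmFit then eBayes, R 4.3.3) held a mean for each comparison and a dye term over 12 arrays. Each adjusted p is Benjamini-Hochberg over 14729 features, with a threshold of 0.05. An SE is that of the fit, so it draws on all 12 arrays, and precision is limited by how many arrays there are. The fit was tested on simulated data. Pairs used exact sign-flip tests.

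The isozyme genes, gene lists, fit and alternatives were chosen with earlier results of these data known. Named beside the 9 isozyme genes are pathway genes past the threshold, the 4 of smallest p per comparison, and the 3 genes most alike in pattern to each germ cell form; marker genes Syce2, Cyp17a1 and Tyrobp, and Gpd2, were named after their values were seen.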

Additional observations from a re-analysis of the deposited data

Results flagged for a closer look

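In 48 sets of 4 arrays examined, 1 array stood far from the other 3 in 3 sets; chance gives this in about 1 set of 20. In Wobbler over wildtype, replicate 4 of Gapdhs was at -0.273, the next value being 0.390. In Wobbler modifier over Wobbler, replicate 3 of Slc2a5 was at -0.188, the next being 0.425. In Wobbler over wildtype, replicate 1 of Slc2a8 was at 0.230, while the others lay at -0.888 or below.

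The Pgk2 ratio over wildtype differed between Wobbler modifier and Wobbler by -1.25 (log2) in limma, by a test of the difference itself, with the limits given beside that result.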

How the results depend on the processing

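Limits: the calls rest on 4 arrays per comparison, no intensities were used here, and the pooled spread includes the wide array of Wobbler over wildtype. The direction is only likely. In Wobbler modifier over wildtype Pgk2 passed in 19 of 23 alternatives run in the turned direction, and Ldhc, Gapdhs and Hk1 in 2, 3 and 3. Each of these genes kept its sign in 23 of 23. Many of the alternatives leave the ratio itself unchanged, so the sign was fixed there. Among them are the fits without a dye term and those without an array of another comparison.

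Features called in Wobbler modifier over wildtype (108) were 483 with arrays scaled to equal spread, 46 without a dye term, 4 with the comparison fitted alone, 709 with array weights, 223 with the loop model, 165 by probe, and 20 to 154 with 1 array left out. In Wobbler modifier over Wobbler (61) they were 7 without a dye term, 0 fitted alone, 210 with the loop model, 110 by probe, and 0 to 128 with 1 array left out. In Wobbler over wildtype (45) they were 23 scaled, 24 without a dye term, 0 fitted alone, 22 with array weights, 0 with the loop model, 87 by probe, and 18 to 54 with 1 array left out. Read as channel 1 over channel 2, no array being turned, 0 passed in each comparison.

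Isozyme genes called in Wobbler modifier over wildtype (1) were 4 with scaled arrays, 4 with array weights, 0 fitted alone, 0 unturned, and 0 to 2 with 1 array left out. Scaled arrays and array weights both called Pgk2, Ldhc, Gapdhs and Hk1. In Wobbler modifier over Wobbler (0) they were 1 with arrays centred on their medians, with array weights, with the loop model and with a value required on all 4 arrays, and 0 to 1 with 1 array left out. Other pathway genes called in Wobbler modifier over wildtype (0) were 2 with scaled arrays and 4 with array weights, and in Wobbler over wildtype (0) 0 to 1 with 1 array left out.

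Deviations of same-numbered arrays from the fit correlated at -0.343 to 0.0895. Of 12 arrays, 0 had their highest correlation with an array of their own number. Same-numbered arrays share a dye orientation, and a dye term had been taken out of these deviations. A pool that is numerator on 1 array and denominator on another would also give a negative correlation. The check therefore cannot tell whether same-numbered arrays were paired. With the number as a replicate block, which contains the dye orientation, 58, 24 and 22 features passed in Wobbler modifier over wildtype, Wobbler modifier over Wobbler and Wobbler over wildtype. Pgk2 kept its call in Wobbler modifier over wildtype (adjusted p 0.0252), and its difference between the modifier and Wobbler ratios was -1.25 with an adjusted p of 0.0615.

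Unturned, the sign changed in Wobbler modifier over wildtype for Pgk2 (0.10), Ldhc (0.13), Pdha2 (0.29), Gapdh (0.34) and Hk1 (0.10), in Wobbler modifier over Wobbler for Pgk2 (0.14), Ldhc (0.11), Gapdh (0.14), Hk1 (0.26) and Pdha2 minus Pdha1 (0.071), and in Wobbler over wildtype for Ldhc (0.25). Turning is the construction of that alternative. Values near 0 also changed sign: Pdha1 in Wobbler modifier over wildtype was -0.0497 with the loop model and -0.10 to 0.25 with 1 array left out. In Wobbler over wildtype Pdha2 was 0.0175 with array weights and ranged from -0.30 to 0.14, and Gapdh from -0.0093 to 0.50, with 1 array left out. Gapdhs minus Gapdh in Wobbler over wildtype was 0.0685 with Gapdhs probe 8003 against Gapdh probes 16944 and 19122, chosen after the values were seen. With both Gapdhs probes it was 0.0327 scaled, 0.24 without Gapdh probe 20266, and -0.26 to 0.32 with 1 array left out. In Wobbler modifier over Wobbler it was -0.191 to 0.11, and Pdha2 minus Pdha1 -0.0793 to 0.0167. The modifier ratio minus the Wobbler ratio of Pdha2 was -0.41 to 0.0227. Beyond these constructions the cause was not tested.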
